A study of Mus musculus with 8 samples.

Results

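The mRNAs of 10 genes of excitation-contraction coupling and calcium handling were followed in mouse muscle in which *Uba1*, the gene of the ubiquitin-activating enzyme UBA1, was targeted with siRNAs. They were chosen by name as the main components that turn a muscle action potential into a calcium signal and end it (*Cacna1s*, *Ryr1*, *Jph1*, *Jph2*, *Atp2a1*, *Atp2a2*, *Sln*, *Casq1*, *Casq2* and *Pvalb*). All 10 were found among the 41709 genes of the table, and all 10 were among the 11530 genes that reached 1 TPM (transcripts per 1000000 transcripts) in at least 4 of the 8 muscles and were tested. Total mRNA of tibialis anterior (TA) muscles was measured by RNA-seq in 3-month-old male C57BL/6J mice, 7 days after siRNA pools (SMARTpools) were brought in by electroporation. In 4 mice, *Uba1* siRNAs were given to the left TA muscle and non-targeting (NT) control siRNAs to the right TA muscle, so that leg side and siRNA cannot be told apart. Both legs were injected and electroporated, and no muscle was left untreated. Replicate numbers 1 to 4 mark the mice. The treatment tags of the labels name UBA2, UBA3 and UBA4 in replicates 2, 3 and 4, whereas their titles and descriptions name UBA1, and grouping followed the descriptions.

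In skeletal muscle, depolarization of the transverse tubule moves the voltage sensor CACNA1S, which opens the calcium release channel RYR1 in the facing membrane of the sarcoplasmic reticulum, while junctophilins hold these membranes together at the triad. The released calcium is stored beforehand on calsequestrin, is buffered in the cytosol of fast fibers by parvalbumin, and is pumped back by the SERCA ATPases, which sarcolipin inhibits. Fast fibers mainly use SERCA1 and calsequestrin 1, encoded by *Atp2a1* and *Casq1*. SERCA2 and calsequestrin 2, encoded by *Atp2a2* and *Casq2*, are found in slow fibers and heart.

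Because 3 of these steps are served by pairs of paralogs, the value of each paralog rests on the bases that tell their mRNAs apart. The stretch of 100 bases, the length of a read, in which the coding sequences of each pair are most alike is shown with the differing bases in capitals. These were read from the GENCODE M39 transcripts, 5′ to 3′, and positions count from the first base of the start codon. The SERCA genes differed at 9 of 100 bases between positions 2197 and 2296 of *Atp2a1* and 2194 and 2293 of *Atp2a2*.
Atp2a1: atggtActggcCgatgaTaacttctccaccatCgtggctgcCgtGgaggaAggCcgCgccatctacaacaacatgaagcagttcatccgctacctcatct
Atp2a2: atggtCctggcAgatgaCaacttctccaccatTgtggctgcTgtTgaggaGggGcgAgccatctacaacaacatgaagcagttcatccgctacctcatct
The calsequestrin genes differed at 20 of 100 bases between positions 925 and 1024 of *Casq1* and 880 and 979 of *Casq2*.
Casq1: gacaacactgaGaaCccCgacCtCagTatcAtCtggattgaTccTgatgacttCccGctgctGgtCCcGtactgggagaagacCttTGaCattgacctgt
Casq2: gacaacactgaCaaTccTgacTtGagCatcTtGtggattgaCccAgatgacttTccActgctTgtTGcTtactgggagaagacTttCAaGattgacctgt
The junctophilin genes differed at 16 of 100 bases between positions 406 and 505 of both genes.
Jph1: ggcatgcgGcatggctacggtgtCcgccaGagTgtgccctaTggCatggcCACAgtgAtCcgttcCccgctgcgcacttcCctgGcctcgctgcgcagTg
Jph2: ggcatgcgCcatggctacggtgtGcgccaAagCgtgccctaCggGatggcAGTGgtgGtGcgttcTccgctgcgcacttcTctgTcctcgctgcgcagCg
No stretch of 100 bases was shared within any of the 3 pairs. Over the whole aligned coding sequence, identity was 75% for the SERCA genes, 69.1% for the calsequestrin genes and 63.1% for the junctophilin genes, with longest identical runs of 44, 15 and 35 bases. Reads as long as these stretches thus carry bases that tell the paralogs apart.

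*Sln*, the lowest of the 10 mRNAs, encodes sarcolipin, a peptide of 31 codons, and its whole coding sequence of 96 bases is shown with the start and stop codons in capitals, because it is a small part of a transcript of 1318 bases.
Sln: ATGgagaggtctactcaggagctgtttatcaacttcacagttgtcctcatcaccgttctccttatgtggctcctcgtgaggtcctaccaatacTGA

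The genes lie apart in GRCm39. *Cacna1s* is at chr1:135980259-136047560 (plus strand, 44 exons), *Ryr1* at chr7:28702769-28824604 (minus strand, 106 exons), *Jph1* at chr1:17012318-17168113 (minus strand, 5 exons) and *Jph2* at chr2:163178162-163239920 (minus strand, 6 exons). *Atp2a1* is at chr7:126045013-126063423 (minus strand, 23 exons), *Atp2a2* at chr5:122591575-122640903 (minus strand, 21 exons) and *Sln* at chr9:53742537-53761846 (plus strand, 2 exons). *Casq1* is at chr1:172037459-172049328 (minus strand, 11 exons), *Casq2* at chr3:101993234-102056307 (plus strand, 11 exons) and *Pvalb* at chr15:78075314-78091149 (minus strand, 4 exons). Genes of the opposite strand share exonic sequence with some of them. *Rabep2* shares 11.7% of the 100-base stretches of the *Atp2a1* transcript, and noncoding RNAs share 9.25% of those of *Cacna1s* and 2.58% of those of *Ryr1*. *Casq1* shares 0.145% of its stretches with a noncoding RNA of the opposite strand. *Atp2a2* shares 2.12%, in part with *Anapc7* of the opposite strand and in part with a gene that does not overlap it. The other 5 genes share none. The library kit does not mark the strand, so reads from the overlaps of opposite strands cannot be assigned to either gene with certainty.

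*Uba1* mRNA checked the labels. It was at 60.6, 59.0, 63.6 and 59.1 TPM in NT replicates 1 to 4 and at 18.1, 6.77, 15.8 and 23.1 TPM in *Uba1* replicates 1 to 4. It was lower in 4 of 4 mice (log2FC -1.98, standard error 0.290, limma adjusted p = 0.0527 by the Benjamini-Hochberg method, and 0.0278 with the legs of a mouse as a block). SE stands for standard error. The exact two-sided permutation test gave p = 0.0286, the smallest that this design allows. *Uba1* replicate 2 held the least of the targeted mRNA. Transcripts of the mitochondrial genome took 42.1% to 45.7% of TPM with NT siRNAs and 39.9% to 50.3% with *Uba1* siRNAs, with 50.3% in *Uba1* replicate 2 and 46.5% in replicate 4. Each muscle's TPM sum to 1000000, so the number of reads behind a value is unknown.

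None of the 10 mRNAs passed a test of *Uba1* siRNAs against NT siRNAs. By limma, 0 of 10 passed an adjusted p of 0.05, against 0.026% of all genes tested, and 0 of 10 passed an unadjusted P of 0.05 in either direction, against 16% of all genes in the higher and 1.98% in the lower direction. The Kruskal-Wallis test also called 0 of 10, with a smallest unadjusted P of 0.149. With the legs of a mouse as a block, 0 of 10 passed the adjusted p, against 0.494% of all genes. The groups overlapped for all 10 mRNAs, whereas they were separate for 11.6% of all genes. No gene of the 10 was higher in 4 of 4 mice and none was lower in 4 of 4, against 32.2% and 2.98% of all genes. In bulk muscle, a difference in the number of fibers of a type and in mRNA per fiber cannot be told apart.

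**Figure D1:**
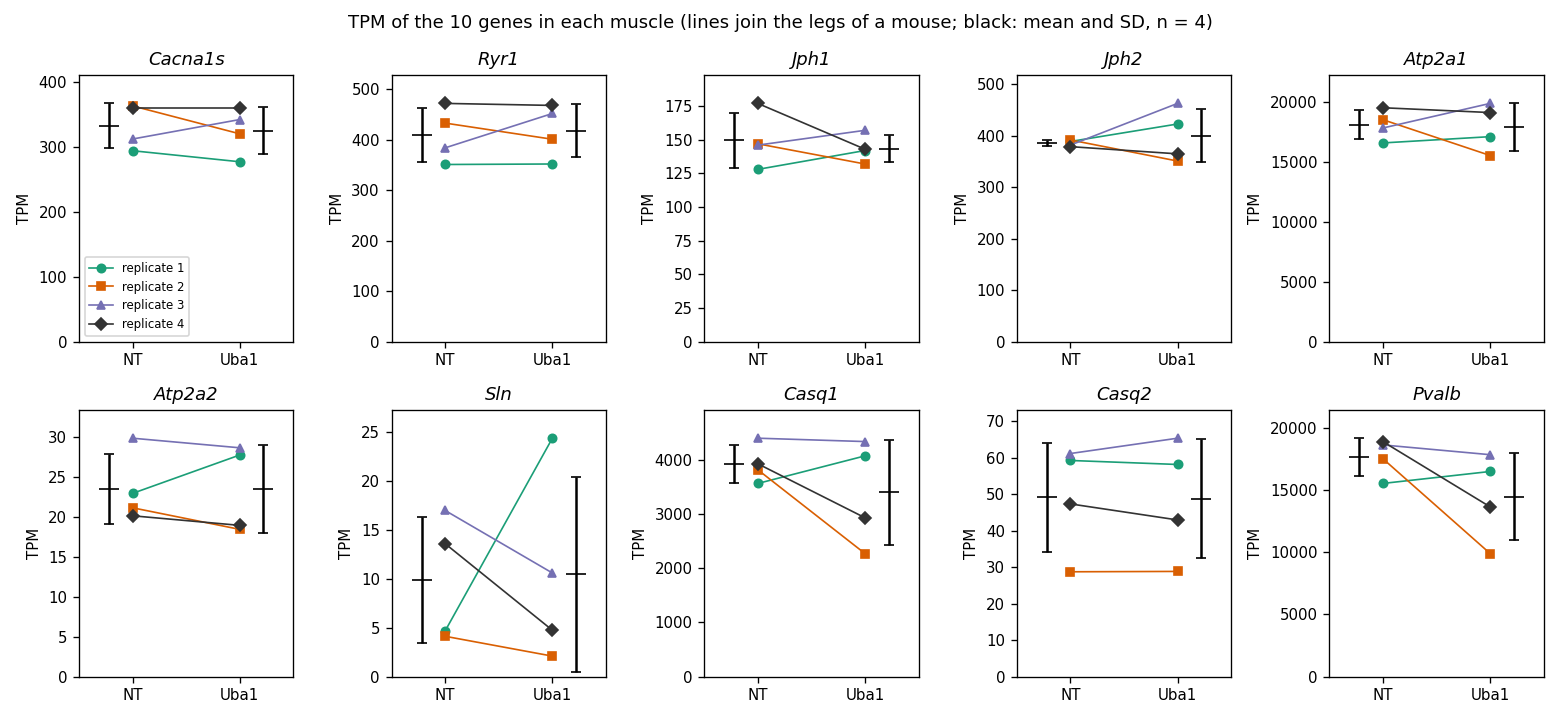
Each panel plots the TPM of a gene (vertical axis, from 0) in the 4 muscles with NT siRNAs and the 4 with Uba1 siRNAs, with lines joining the legs of a mouse and black bars giving the mean and SD (n = 4). The groups overlap in every panel, Casq1 and Pvalb are lowest in Uba1 replicates 2 and 4, and Sln is at 4.67 and 24.4 TPM in the legs of replicate 1 and is lower in the Uba1 leg of the other 3 mice.

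The levels spanned a wide range, and TPM, which account for transcript length, allow them to be ordered. *Atp2a1*, the pump of fast fibers, had a mean of 18015 TPM over the 8 muscles and ranked 2 among nuclear genes, and *Pvalb*, the soluble calcium buffer, followed at 16054 TPM and rank 6. The ranges of these 2 genes overlapped, although *Atp2a1* was the higher in 7 of 8 muscles. *Casq1* was at 3661 TPM (rank 20), with no overlap with either neighbor in the order. *Ryr1* at 414 TPM and *Jph2* at 393 TPM could not be separated, since *Ryr1* was the higher in 5 of 8 muscles. *Cacna1s* was at 328 TPM, below *Jph2* in 8 of 8 muscles although their ranges overlapped. *Jph1* at 147 TPM stood apart from both neighbors. The lower end was held by *Casq2* at 48.9 TPM, *Atp2a2* at 23.4 TPM and *Sln* at 10.2 TPM. Their ranges overlapped from each gene to the next, with the same order in 8 of 8 muscles.

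*Cacna1s* and *Ryr1*, the voltage sensor and the release channel, did not pass the test and followed each other from muscle to muscle. *Cacna1s* was at 294, 363, 312 and 360 TPM with NT siRNAs and at 277, 320, 342 and 360 TPM with *Uba1* siRNAs. The means were 332 ± 34.6 and 325 ± 36.0 TPM (SD, n = 4), and the log2FC was -0.034 (SE 0.103, 95% interval -0.27 to 0.20, limma adjusted p = 0.863). The muscles of replicate 1 were the lowest in both groups. *Ryr1* was at 351, 433, 384 and 472 TPM with NT siRNAs and at 352, 401, 452 and 468 TPM with *Uba1* siRNAs. Its means were 410 ± 53.2 and 418 ± 52.4 TPM, with a log2FC of 0.029 (SE 0.117, 95% interval -0.24 to 0.29, limma adjusted p = 0.902). As for *Cacna1s*, replicate 1 had the lowest *Ryr1* in both legs, and replicate 4 had the highest. The ratio of *Ryr1* to *Cacna1s* TPM stayed between 1.19 and 1.32 in the 8 muscles, with geometric means of 1.23 and 1.29 (exact two-sided permutation test, p = 0.143, and 0.429 after Benjamini-Hochberg adjustment over the 6 ratios tested).

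*Jph1* and *Jph2*, which tether the junctional membranes, did not pass the test either. *Jph1* was at 128, 147, 146 and 177 TPM with NT siRNAs and at 142, 132, 157 and 143 TPM with *Uba1* siRNAs, a log2FC of -0.050 (SE 0.101, 95% interval -0.28 to 0.18, limma adjusted p = 0.790). The single highest value belonged to NT replicate 4. *Jph2* was at 389, 392, 382 and 379 TPM with NT siRNAs and at 423, 351, 463 and 365 TPM with *Uba1* siRNAs, a log2FC of 0.047 (SE 0.0904, 95% interval -0.16 to 0.25, limma adjusted p = 0.782). The NT muscles were close to each other, with a coefficient of variation of 1.53%, whereas the *Uba1* muscles fell on both sides of them, with 13%. Replicates 1 and 3 were above every NT muscle and replicates 2 and 4 below every NT muscle. The ratio of *Jph1* to *Jph2* ranged from 0.329 to 0.468 with NT siRNAs and from 0.336 to 0.392 with *Uba1* siRNAs (exact permutation p = 0.600).

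The group means of the SERCA pumps differed by less than the spread of the muscles. *Atp2a1* was at 16587, 18524, 17833 and 19522 TPM with NT siRNAs and at 17110, 15537, 19885 and 19122 TPM with *Uba1* siRNAs. The log2FC was -0.020 (SE 0.102, 95% interval -0.25 to 0.21, limma adjusted p = 0.923), which on the linear scale is a 95% interval from 0.841-fold to 1.16-fold. *Uba1* replicate 2 had the lowest value of the 8. *Atp2a2*, the pump of slow fibers, was at 22.9, 21.1, 29.8 and 20.1 TPM with NT siRNAs and at 27.7, 18.4, 28.6 and 18.9 TPM with *Uba1* siRNAs, a log2FC of -0.016 (SE 0.173, 95% interval -0.41 to 0.37, limma adjusted p = 0.967). The muscles of replicate 3 were high and those of replicates 2 and 4 low in both legs. *Atp2a1* exceeded *Atp2a2* by 598- to 973-fold with NT siRNAs and by 618- to 1010-fold with *Uba1* siRNAs, with geometric means of 780 and 778 (exact permutation p = 0.943).

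*Sln*, the inhibitor of the pumps, was the most variable of the 10. It was at 4.67, 4.12, 17.0 and 13.6 TPM with NT siRNAs and at 24.4, 2.09, 10.6 and 4.74 TPM with *Uba1* siRNAs, so that the highest muscle exceeded the lowest by 11.7-fold. Both extremes were *Uba1* muscles. Between the legs of a mouse, the *Uba1* leg held 5.23 times the *Sln* of the NT leg in replicate 1 but 0.507, 0.623 and 0.348 times in replicates 2, 3 and 4. The log2FC of -0.14 (SE 0.650, limma adjusted p = 0.919) had a 95% interval from -1.6 to 1.33. It spans 0.330-fold to 2.51-fold, so that a wide range of changes remains compatible with these values. The ratio of *Sln* to *Atp2a1* did not pass the test (exact permutation p = 0.857).

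*Casq1* and *Pvalb* had the lowest log2FC of the 10, with low values in 2 of the 4 *Uba1* muscles, and neither passed the test. *Casq1*, the main calcium store of fast fibers, was at 3560, 3814, 4395 and 3924 TPM with NT siRNAs and at 4069, 2268, 4333 and 2928 TPM with *Uba1* siRNAs. Replicates 2 and 4 lay below every NT muscle, and replicates 1 and 3 within the NT range. The means were 3923 ± 349 and 3399 ± 970 TPM (SD, n = 4), with a log2FC of -0.25 (SE 0.191, 95% interval -0.68 to 0.18, limma adjusted p = 0.479). *Pvalb* was at 15531, 17515, 18628 and 18891 TPM with NT siRNAs and at 16493, 9891, 17842 and 13645 TPM with *Uba1* siRNAs. The same muscles, replicates 2 and 4, were below every NT muscle. The means were 17641 ± 1528 and 14468 ± 3517 TPM, with a log2FC of -0.32 (SE 0.174, 95% interval -0.71 to 0.075, limma adjusted p = 0.346). *Pvalb* was lower in the *Uba1* leg of 3 of 4 mice, and the exact permutation p was 0.200. Without *Uba1* replicate 2, the log2FC was -0.071 for *Casq1* and -0.15 for *Pvalb*.

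*Casq2*, a calsequestrin found in slow fibers and heart, was at 59.2, 28.7, 61.1 and 47.3 TPM with NT siRNAs and at 58.1, 28.8, 65.3 and 42.9 TPM with *Uba1* siRNAs. It differed between mice far more than between the legs of a mouse, since each pair of legs was within 0.907- to 1.07-fold while the mice spanned a 2.27-fold range. The log2FC was -0.017 (SE 0.291, limma adjusted p = 0.978), and with the legs of a mouse as a block its standard error was 0.066. The ratio of *Casq1* to *Casq2* was 60.2, 133, 72.0 and 83.0 with NT siRNAs and 70.1, 78.9, 66.4 and 68.3 with *Uba1* siRNAs (exact permutation p = 0.486). The ratio of *Pvalb* to *Atp2a1*, a pair of abundant fast-fiber mRNAs, was 0.936, 0.946, 1.04 and 0.968 with NT siRNAs and 0.964, 0.637, 0.897 and 0.714 with *Uba1* siRNAs. This was the lowest p of the 6 ratios (exact two-sided permutation test, p = 0.0857), and it did not pass adjustment (0.429). The *Uba1* leg was lower in 3 of 4 mice.

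**Figure D2:**
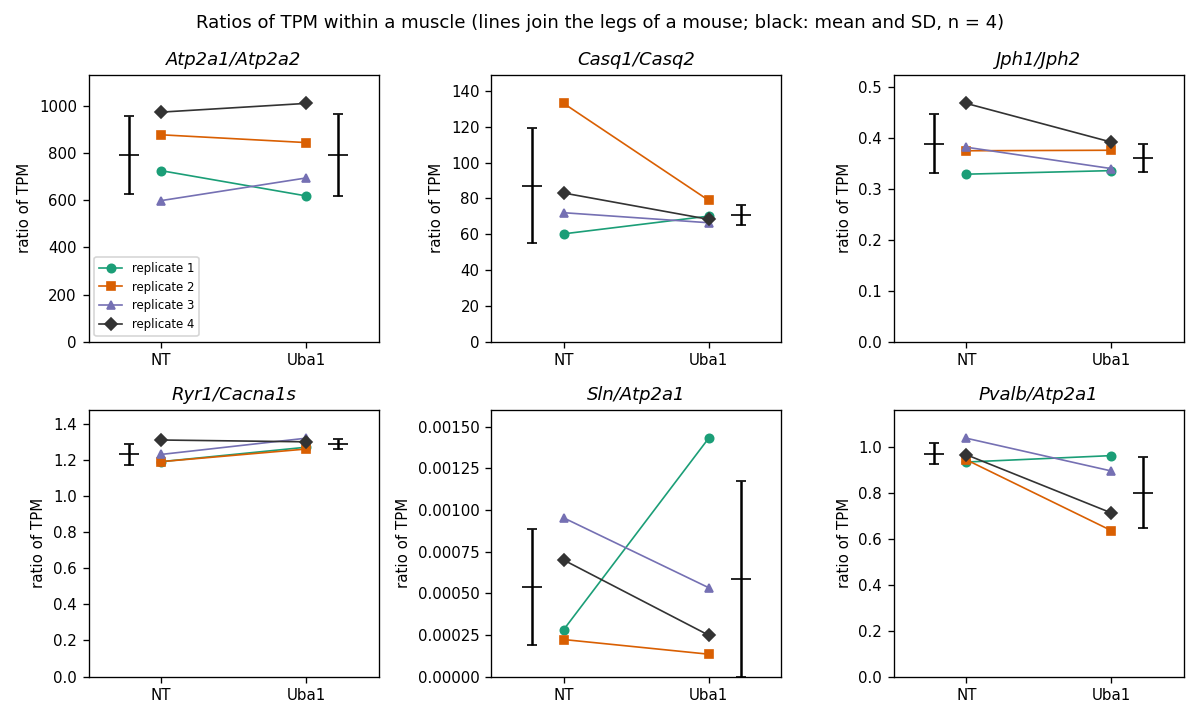
Each panel plots a ratio of TPM of 2 genes within a muscle (vertical axis, from 0, no unit) for the 4 NT and 4 Uba1 muscles, with lines joining the legs of a mouse and black bars giving mean and SD (n = 4). The Ryr1/Cacna1s ratio stays between 1.19 and 1.32, and the Pvalb/Atp2a1 ratio is lowest in Uba1 replicates 2 and 4, at 0.637 and 0.714.

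The direction of small changes depended on how the muscles were scaled. With TPM as deposited, 81.8% of all genes tested had a positive log2FC and their median was 0.106, while 2 of the 10 genes (*Ryr1* and *Jph2*) were positive and the median of the 10 was -0.027. Relative to the median of all genes, the log2FC of the 10 genes ran from -0.42 (*Pvalb*) to -0.059 (*Jph2*). Median-ratio scaling lowered the median of all genes by 0.104, leaving 50.7% of them positive, and all 10 genes were then negative, with a median of -0.149 against 0.0016 for all genes. On that scale *Casq1* had a log2FC of -0.37 (unadjusted P = 0.0365) and *Pvalb* of -0.44 (unadjusted P = 0.0128), and 2 of 10 genes were lower at an unadjusted P of 0.05, against 6.18% of all genes lower and 4.43% higher. Neither passed adjustment (limma adjusted p = 0.432 and 0.303). With median-ratio scaling and the legs of a mouse as a block, *Casq1*, *Casq2*, *Pvalb* and *Jph1* were lower at an unadjusted P of 0.05, 4 of 10 against 8.76% of all genes, and the lowest adjusted p of the 10 was 0.232. Quantile normalization called 0 of 10 at an unadjusted P of 0.05.

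**Figure D3:**
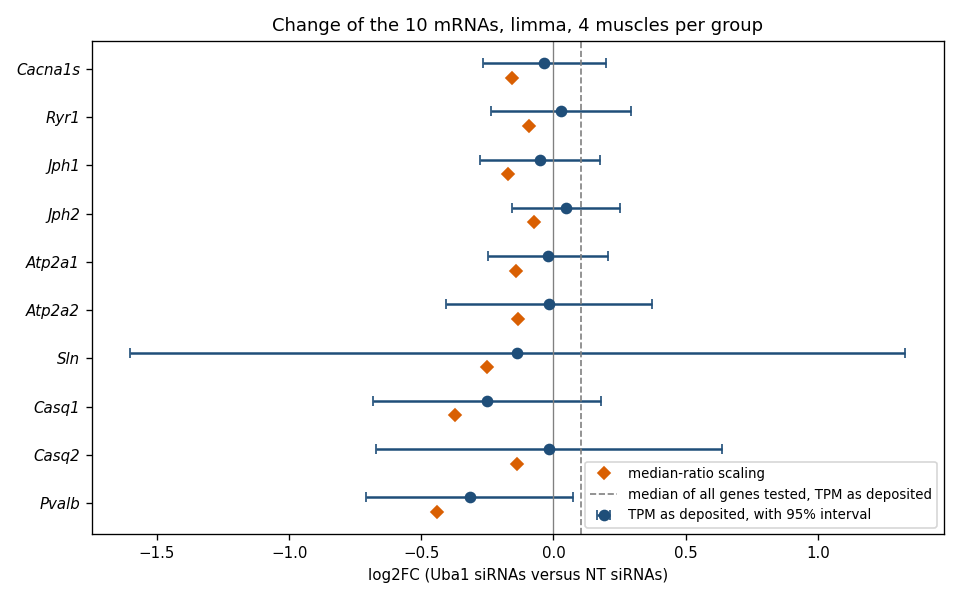
The horizontal axis is the log2FC (Uba1 siRNAs versus NT siRNAs, 4 muscles per group) of each gene, with circles and 95% intervals for TPM as deposited and diamonds for median-ratio scaling. All 10 intervals include 0, all 10 diamonds lie below 0, and the dashed line marks the median of all genes tested, 0.106.

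As a share of the TPM of nuclear genes, which does not depend on the mitochondrial transcripts, the 10 mRNAs made up 7.29% ± 0.374 in the NT muscles and 6.63% ± 0.615 in the *Uba1* muscles (SD, n = 4). The groups overlapped, from 6.80% to 7.71% and from 5.83% to 7.25%, but within each mouse the *Uba1* leg was the lower. In replicates 1 to 4 the share was 6.80%, 7.35%, 7.29% and 7.71% in the NT legs and 6.52%, 5.83%, 7.25% and 6.94% in the *Uba1* legs. *Atp2a1* held 3.22% of nuclear TPM in both groups, and *Pvalb* held 3.13% ± 0.199 and 2.57% ± 0.420. The share of *Pvalb* was lower in 4 of 4 mice (exact two-sided permutation test, p = 0.0571), against 3 of 4 with TPM as deposited, and overlapped between the groups. How many of all genes were lower in 4 of 4 mice on this scale was not counted. The share of *Casq1* was 0.696% ± 0.0446 and 0.602% ± 0.122 (exact permutation p = 0.257). These shares were added after the values were seen.

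With TPM as deposited, the direction of the difference between the legs varied from mouse to mouse. In the mouse of replicate 1, 8 of the 10 mRNAs were higher in the *Uba1* leg, and in that of replicate 3, 6 of 10 were. In the mouse of replicate 2 only *Casq2* was higher, and in that of replicate 4 only *Cacna1s*, by 0.00038 on the log2 scale. *Casq1* differed between legs by 0.19, -0.75, -0.021 and -0.42 on the log2 scale in the mice of replicates 1 to 4, and *Pvalb* by 0.087, -0.82, -0.062 and -0.47. In both genes the mice of replicates 2 and 4 had the largest drops, and the other 2 mice lay between -0.062 and 0.19.

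**Figure D4:**
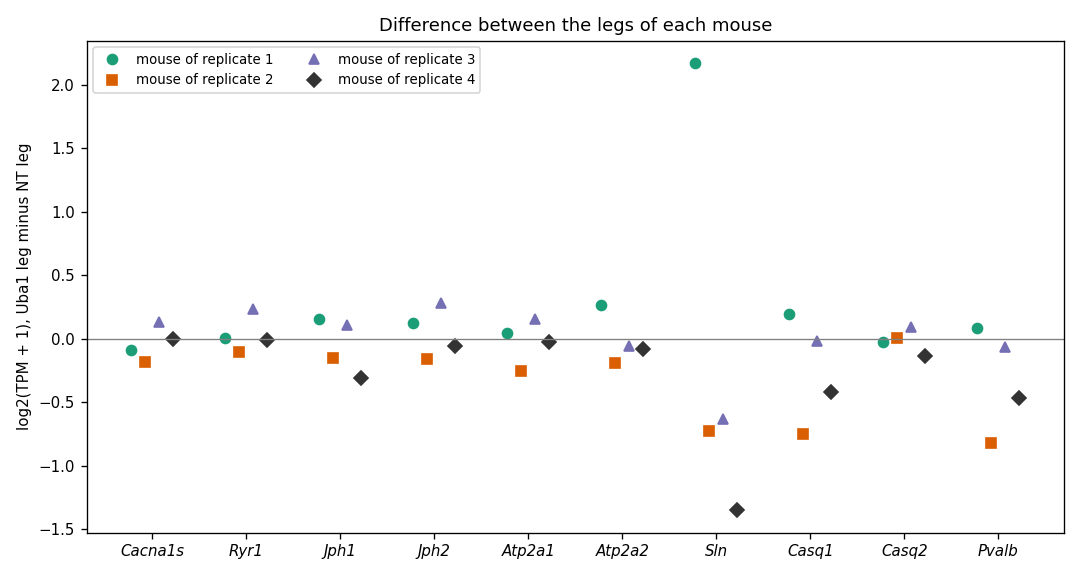
The vertical axis is the difference in log2(TPM + 1) between the Uba1 leg and the NT leg of a mouse, with a symbol for each of the 4 mice and the 10 genes along the horizontal axis. The mice lie on both sides of 0 in every gene, and the largest differences are those of Sln, from -1.35 to 2.17.

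Some markers of fiber type were low in the same muscles as *Casq1* and *Pvalb*, and others were not. The summed TPM of 9 fast-fiber markers was 95870 to 108807 with NT siRNAs and 100213, 76792, 105830 and 91687 in *Uba1* replicates 1 to 4. Replicates 2 and 4 were thus below every NT muscle, and by limma 0 of the 9 markers passed the adjusted p or an unadjusted P of 0.05, while 5 were lower at an unadjusted P with median-ratio scaling, against 6.18% of all genes. *Myh4*, the myosin of the fastest fibers, ranged from 13996 to 20528 TPM with NT siRNAs and was at 13419, 10560, 16625 and 17829 TPM with *Uba1* siRNAs. It was thus lowest in *Uba1* replicate 2 but highest of the *Uba1* muscles in replicate 4, where *Casq1* and *Pvalb* were low. *Tnnc2*, fast troponin C, was at 13583 and 16309 TPM in *Uba1* replicates 2 and 4, below the 16865 to 18717 TPM with NT siRNAs. *Mylpf*, *Myl1*, *Tnnt3* and *Tnni2* were also below every NT muscle in both of these replicates. *Actn3* and *Mybpc2* were below every NT muscle in replicate 2 only. *Myh1*, the type 2x myosin, was instead highest in *Uba1* replicate 2, at 6010 TPM, against 2504 to 4620 TPM with NT siRNAs. *Myh2*, the type 2a myosin, was at 169, 79.0, 95.9 and 149 TPM with NT siRNAs and at 99.7, 201, 135 and 329 TPM with *Uba1* siRNAs, so that *Uba1* replicates 2 and 4 exceeded every NT muscle. The part of fiber type in the lower *Casq1* and *Pvalb* of these muscles was not tested.

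Most markers of slow fibers were low, as was *Atp2a2*. *Myh7*, the slow myosin, was at 0.396 to 2.88 TPM and *Tnnc1*, slow and cardiac troponin C, at 4.90 to 11.7 TPM over the 8 muscles. The summed TPM of 10 slow-fiber markers was 1005 to 1146 with NT siRNAs and 1192 to 1281 with *Uba1* siRNAs. The groups did not overlap, as was so for 11.6% of all single genes. Most of that sum was *Mybpc1*, a myosin-binding protein (993 and 1131 TPM, log2FC 0.19, limma adjusted p = 0.182), which was singled out after its values were seen. Its log2FC was 0.066 with median-ratio scaling. Of the 9 tested genes of the slow-fiber list, 6 had a positive log2FC, the highest *Myl3* at 0.58, and 3 a negative one. The 3 were *Tnni1*, *Tnnt1* and *Tpm3*, at -0.47, -0.25 and -0.16. With median-ratio scaling, *Tpm3*, a slow tropomyosin, was lower at an unadjusted P (limma, 0.00574), against 6.18% of all genes. It did not pass adjustment (limma adjusted p = 0.242). Summed markers of developing and regenerating fibers were at 56.8 to 114 TPM and 34.8 to 106 TPM, with the lowest value in *Uba1* replicate 2. With the legs of a mouse as a block, *Myod1* was higher and *Myh3* and *Mymk* lower at an unadjusted P of 0.05, as were 2588 and 323 of all 11530 genes, and none passed adjustment. Cardiac markers summed to 1.22 to 2.10 TPM, with *Nppb* at 0 in every muscle. Adipocyte markers summed to 30.9 to 71.5 TPM with NT siRNAs and to 53.1, 6.96, 54.9 and 10.2 TPM with *Uba1* siRNAs, and their low values again fell in replicates 2 and 4, as did the highest mitochondrial shares. Of the 3 tested, *Adipoq* and *Cfd* were lower at an unadjusted P of 0.05 with the block, against the same 323 of 11530 genes, and neither passed adjustment. Their part in the values of the 10 genes was not tested.

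The wider machinery of calcium handling was read from 8 lists of 101 other genes, of which 99 were found under those symbols and 87 were tested. By limma, 0 of 87 passed an adjusted p of 0.05, and the lowest was 0.162. At an unadjusted P of 0.05, 6 were higher and 1 lower, against 16% and 1.98% of all genes, and the Kruskal-Wallis test gave 7 and 1. The median log2FC of the 87 was 0.074, below the 0.106 of all genes. The groups were separate for 5 of the 87 (*Orai3*, *Atp2b3*, *Camk2g*, *Canx* and, outside the rule for naming genes, *Kcnj11*), against 11.6% of all genes. In 4 of 4 mice, 16 were higher and 2 lower, against 32.2% and 2.98% of all genes. The split of unadjusted calls turned over with scaling, to 1 higher and 9 lower with median-ratio scaling, against 4.43% and 6.18% of all genes.

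By list, the 21 genes tested of the triad and release complex, which include the β, α2δ and γ subunits of the calcium channel and *Stac3*, its chaperone, had a median log2FC of 0.052, and 0 passed an unadjusted P of 0.05. With median-ratio scaling 4 of the 21 were lower at that P (*Cacnb1*, *Stac3*, *Asph* and *Srl*), against 6.18% of all genes, and 0 passed adjustment. With TPM as deposited, the lowest log2FC of the 21 was that of *Sypl2*, a triad membrane protein, at -0.19. The highest was that of *Cacna2d1*, the α2δ subunit, at 0.33. The release channels *Ryr2* and *Ryr3* were both under 0.2 TPM in every muscle and were not tested. The 3 tested pump genes and small regulators of the pumps, *Atp2a3*, *Pln* and *Mrln*, ranged from -0.036 to 0.086. Store-operated entry (7 genes) had a median of 0.053, plasma membrane extrusion (5 genes) 0.143, mitochondrial calcium uptake (9 genes) 0.075, and luminal calcium-binding chaperones (8 genes) 0.122. The 17 genes of calcium sensors, calcineurin and CaMK signaling had a median of 0.040 and the widest range of the lists that held an unadjusted call, from -0.47 to 0.41. The 17 genes of sarcolemma excitation had a median of 0.074 and no unadjusted call.

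Of these 87, the genes at an unadjusted P of 0.05 that moved alike in 4 of 4 mice were led by *Rcan1*, a regulator of calcineurin. *Rcan1* was at 65.6, 76.8, 59.7 and 54.6 TPM with NT siRNAs and at 50.6, 43.3, 55.0 and 36.5 TPM with *Uba1* siRNAs. It was the only gene of the 7 that was lower, with a log2FC of -0.47 (SE 0.141, limma adjusted p = 0.177), and -0.59 with median-ratio scaling. *Mylk2*, the myosin light chain kinase of skeletal muscle, was at 664 ± 163 and 869 ± 107 TPM (log2FC 0.41, limma adjusted p = 0.247). *Rcan2*, the paralog of *Rcan1*, was at 29.2 ± 5.81 and 38.5 ± 6.51 TPM (log2FC 0.39, adjusted p = 0.241). *Orai3*, a channel of store-operated entry, was at 8.03 ± 0.708 and 10.3 ± 1.19 TPM (log2FC 0.32, adjusted p = 0.173). *Atp2b3*, a plasma membrane calcium pump, was at 5.28 ± 0.222 and 6.54 ± 0.822 TPM, *Camk2g*, a calmodulin-dependent kinase, at 56.4 ± 3.22 and 66.2 ± 1.89 TPM, and *Canx*, a chaperone of the endoplasmic reticulum, at 31.2 ± 2.92 and 36.2 ± 1.29 TPM (SD, n = 4). Their log2FC were 0.26, 0.23 and 0.21, and none passed adjustment. With median-ratio scaling, *Rcan1* and *Orai3* alone of these 7 stayed at an unadjusted P under 0.05 (0.000939 and 0.0201).

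**Figure D5:**
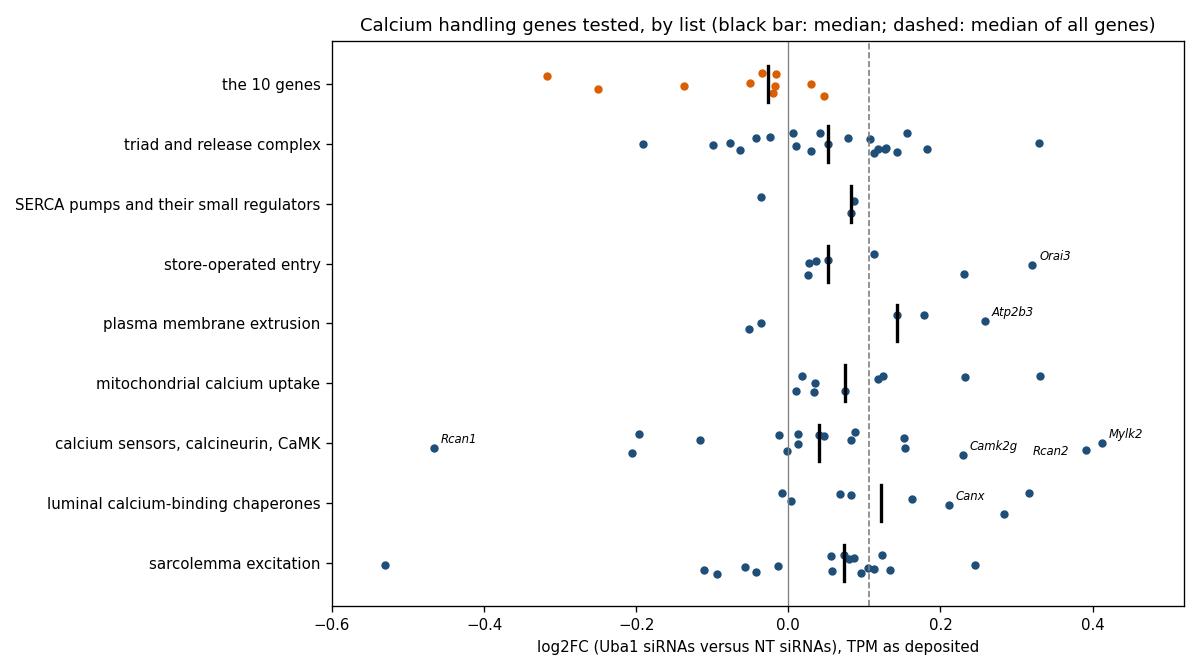
Points give the log2FC (horizontal axis, TPM as deposited) of the 10 genes and of the tested genes of each of the 8 calcium handling lists, with a black bar at each median and a dashed line at the median of all genes, 0.106. The 10 genes have a median of -0.027, and Rcan1 and Mylk2, at -0.47 and 0.41, are named among 7 genes.

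Variation from muscle to muscle was compared after each group was centred at its mean, over the 8 muscles and as a description without a test. All genes shared the same mice, legs and normalization to the total. Among the 10, *Ryr1* and *Cacna1s* followed each other most closely (Pearson r = 0.970), followed by *Casq1* and *Pvalb* (0.967) and by *Casq1* and *Jph2* (0.890). For *Ryr1* and *Casq1* r was -0.042. Among 106 genes of the calcium handling and fiber-type lists, the closest to *Casq1* was *Mylpf*, a fast myosin light chain (0.991), and the closest to *Atp2a1* was *Myh4* (0.968). *Pvalb* and *Jph2* were both closest to *Stac3* (0.955 and 0.951), and *Ryr1* and *Cacna1s* both to *Clcn1*, the muscle chloride channel (0.900 and 0.905). The closest to *Atp2a2* was *Pdia3* (0.994), to *Casq2* *Calu* (0.876), to *Sln* *Ppp3r1* (0.965) and to *Jph1* *Nfatc1* (0.934).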

How the data were processed

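RNA-seq of total mRNA was analyzed in 8 TA muscles, 4 with *Uba1* siRNAs and the contralateral 4 with NT siRNAs. The authors prepared libraries with the TruSeq RNA Sample Prep v2 Kit, trimmed 100-base paired-end reads to a Phred score of 20 and a length of 50 bases, used CLC Genomics Workbench to align them to GRCm39, and deposited TPM. The annotation is not given in the sources used here. TPM keep no depth, so no counting interval is given, and the number of muscles limits the precision.

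Genes that reached 1 TPM in 4 or more muscles were tested on log2(TPM + 1) with limma (version 3.58.1, R 4.3.3, lmFit and eBayes with a trend), without covariates and with Benjamini-Hochberg adjustment at 0.05, a test checked on simulated data. On this scale the change of weakly expressed genes is understated. Ratios and single values were compared with exact two-sided permutation tests, and 4 muscles against 4 cannot give a p under 0.0286. Alternatives were another pseudocount (0.1), other filters on low values, quantile normalization, median-ratio scaling, rescaling without mitochondrial genes, the replicate block, no moderation, the Kruskal-Wallis test named in the methods of the study, and leaving out each muscle. Leaving out the mouse of replicate 2 and the shares of nuclear TPM were added after seeing the data. The labels number the legs of a mouse alike, so the numbers pair the muscles. The correlations of the deviations of paired muscles from their group means were -0.000368, 0.201, 0.584 and 0.537 in replicates 1 to 4.

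The named genes were the 10, *Uba1*, those of the 8 pathway lists at an unadjusted P of 0.05 that moved the same way in all mice, 6 fiber-type markers and the gene closest to each of the 10. Any other gene named was chosen after its values were seen. The 10 genes and all lists, markers of 12 fiber and cell types included, were chosen with earlier results of these data known. Positions and sequences came from GENCODE M39 (GRCm39), aligned with Biopython 1.88.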

Additional observations from a re-analysis of the deposited data

How the results depend on the processing

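Under every alternative run, 0 of the 10 genes passed an adjusted p of 0.05, and the lowest adjusted p of any was 0.188 (*Pvalb*, TPM rescaled without mitochondrial genes, limma). Only *Casq1* and *Pvalb* had the same sign under all 20 alternatives, from -0.38 to -0.071 and from -0.44 to -0.15. The log2FC of the other 8 changed sign, 33 times in all. With median-ratio scaling, with or without the replicate block, *Ryr1* was at -0.092 and *Jph2* at -0.075. With quantile normalization, with or without the block, *Atp2a1* was at 0.012. With TPM rescaled without mitochondrial genes, *Atp2a2* was at 0.0011 and *Casq2* at 9.7e-05. Without both legs of the mouse of replicate 2, *Cacna1s* was at 0.016, *Atp2a1* at 0.057, *Atp2a2* at 0.042 and *Sln* at 0.060, and the log2 ratios of *Atp2a1* to *Atp2a2* and of *Sln* to *Atp2a1* were at 0.014 and 0.0033. In that fit, 6 of the 10 genes had a positive log2FC, and the median of the 10 was 0.029, against 0.129 for all genes. When single muscles were left out, the log2FC ranged from -0.042 to 0.109 for *Ryr1*, from -0.091 to 0.040 for *Cacna1s*, from -0.073 to 0.046 for *Atp2a1*, from -0.118 to 0.101 for *Atp2a2*, from -0.25 to 0.21 for *Casq2*, from -0.66 to 0.35 for *Sln*, from -0.121 to 0.035 for *Jph1* and from -0.026 to 0.106 for *Jph2*. The log2 ratios ranged from -0.131 to 0.107 for *Atp2a1* to *Atp2a2* and from -0.79 to 0.34 for *Sln* to *Atp2a1*.

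Of the 10 genes, 0 were lower at an unadjusted P of 0.05, but 2 were with median-ratio scaling, 1 with TPM rescaled to exclude mitochondrial genes, 4 with the replicate block and median-ratio scaling, and 0 to 1 with each muscle left out (1 without *Uba1* replicate 3). Of the 87 other calcium handling genes, the 6 higher became 1 with median-ratio scaling or quantile normalization, 14 with the replicate block (2588 of all 11530 genes were higher with it), 11 with the block and quantile normalization, 3 without the mouse of replicate 2, and 4 to 11 with each muscle left out (11 without NT replicate 4). The 1 lower became 2 with the replicate block, 2 with TPM rescaled to exclude mitochondrial genes, 4 with quantile normalization, 9 with median-ratio scaling, 10 with the block and median-ratio scaling, 6 with the block and quantile normalization, 0 without the mouse of replicate 2, and 1 to 3 with each muscle left out (3 without *Uba1* replicate 3). The cause of these shifts was not tested. The replicate block also moved the unadjusted calls of marker genes, given beside them. The number of muscles and the unknown depth limit what was detectable, most of all for *Sln*.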

Other observations

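Markers of the other cell types that a TA muscle holds had overlapping ranges between the groups. Their summed TPM, given for the NT muscles first and the *Uba1* muscles second, were 133 to 186 and 152 to 179 for 8 endothelial markers, 171 to 475 and 171 to 528 for 12 leukocyte markers, 481 to 1003 and 605 to 1232 for 7 fibroblast markers, 200 to 315 and 223 to 252 for 5 smooth muscle and pericyte markers, 42.0 to 66.5 and 32.5 to 76.8 for 5 Schwann cell and nerve markers, and 5.90 to 8.04 and 6.90 to 9.25 for 3 satellite cell markers. By limma, 0 of these genes passed an adjusted p of 0.05, and *Lum*, a proteoglycan of fibroblasts, and *Chodl*, a satellite cell marker, were higher at an unadjusted P (0.0133 and 0.0426), against 16% of all genes. With the legs of a mouse as a block, *Col1a1* (0.00171), *Pdgfra* (0.0099), *S100b* (0.0281) and *S100a8* (0.0436) were also higher at an unadjusted P, as were 2588 of all 11530 genes, and none passed adjustment. With the block and median-ratio scaling, *Chodl*, *S100b* and *S100a8* were no longer under 0.05 (0.0575, 0.13 and 0.0758), and the smooth muscle markers *Myh11* and *Acta2* were lower (0.0468 and 0.0154), against 8.76% of all genes. These genes were singled out after their values were seen. Although the ranges overlapped, the summed fibroblast and satellite cell markers were higher in the *Uba1* leg of 4 of 4 mice, as were 32.2% of all single genes. Fibroblast sums were 797, 578, 1003 and 481 TPM in the NT legs and 1049, 605, 1232 and 716 TPM in the *Uba1* legs of replicates 1 to 4. Satellite cell sums were 5.90, 6.79, 8.04 and 6.64 TPM in the NT legs and 8.01, 6.90, 9.25 and 7.45 TPM in the *Uba1* legs.

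No muscle stood apart from its group by Dixon's test in any of the 46 sets of 4 values searched, where chance alone would give 2.3.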
